A study of Mus musculus with 143 samples.

Results

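The oocyte NLR genes followed here are Nlrp14, Nlrp4a, Nlrp4b, Nlrp4c, Nlrp4e, Nlrp9a, Nlrp9b and Nlrp9c, 8 of the 55573 gene identifiers in the poly(A) count tables and of the 55487 in the RiboMinus tables. They were taken as a list of names of NLR genes known from the mouse oocyte, drawn up with earlier results of these data known. The study sequenced RNA of single mouse oocytes that lacked DIS3, EXOSC10 or both, the ribonucleases of the nuclear RNA exosome, and mapped chromatin in pooled oocytes by CUT&Tag, in which an antibody directs a transposase to its target. The poly(A) libraries came from control and Dis3 conditional knockout (Dis3 cKO) oocytes at 3 stages. These were the germinal vesicle stage (GV, the fully grown oocyte arrested in prophase of meiosis), GV oocytes after 3 h in culture (GV3h), and ovulated eggs at metaphase II (MII) of superovulated mice. Each control group held 8 oocytes, and the Dis3 cKO groups held 15 at GV, 16 at GV3h and 16 at MII. The RiboMinus libraries, which keep RNA without a poly(A) tail and were made with an Ovation Solo kit, came from 6 groups of 8 oocytes. These were adult GV control and Dis3 cKO oocytes, and oocytes of postnatal day 20 (p20) mice that were control, Dis3 cKO, Exosc10 cKO or double knockout (dcKO). GV and GV3h oocytes were dissected from ovaries and held in M2 medium, the mutant mice were made with CRISPR/Cas9, and the promoter that drives deletion and the full genotype of the controls are not given in the sources used here. The labels do not say which oocytes came from which animal, so the p-values measure the spread between these oocytes.

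NLR proteins carry a nucleotide-binding domain and leucine-rich repeats, and most NLRP proteins have a pyrin domain, through which some, such as NLRP3, build inflammasomes. A separate reproductive set, to which these 8 genes belong and which has expanded in rodents, is transcribed in the growing oocyte and stored as maternal mRNA, and several of its relatives (Nlrp5, Nlrp2, Nlrp4f) sit in the subcortical maternal complex that early embryos need. NLRP14 supports early embryonic development and is known as a partner of UHRF1, a factor of DNA methylation. NLRP9B is also known from intestinal epithelium, where it works with the helicase DHX9 in sensing viral RNA. The Nlrp4 and Nlrp9 genes arose by duplication and lie in clusters on chromosome 7, so parts of their transcripts are close copies of each other.

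All 8 lie on chromosome 7 in GRCm38.p6 (mm10). Nlrp9c (ENSMUSG00000040614) spans chr7:26364691-26403700, Nlrp4a (ENSMUSG00000040601) chr7:26435113-26476142 and Nlrp9a (ENSMUSG00000054102) chr7:26535023-26574148, which makes these 3 near neighbours. Nlrp9b (ENSMUSG00000060508) spans chr7:19991393-20062942, Nlrp4e (ENSMUSG00000045693) chr7:23301192-23362277, Nlrp4b (ENSMUSG00000034087) chr7:10687793-10730168 and Nlrp4c (ENSMUSG00000034690) chr7:6045161-6105149. Nlrp14 (ENSMUSG00000016626) lies far away at chr7:107113455-107198103. In the RefSeq annotation Nlrp14 overlaps the olfactory receptor genes Olfr715 and Olfr716, Nlrp4e overlaps Krt8-ps, and Nlrp9b overlaps n-R5s152 and Gm8432. How reads in overlaps, on either strand or in sequence shared by copies were assigned is not given in the sources used here, so the split of reads between Nlrp9a and Nlrp9c, and between the Nlrp4 genes, is uncertain.

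The promoters show how close the copies are, and they are printed for that reason. Each is the RefSeq promoter of GRCm38.p6, 250 bases before to 50 bases after an annotated start, written 5′ to 3′ along the gene; 7 of the 8 members had an entry, all but Nlrp14. Capitals mark matches to 4 motifs, each searched on both strands, and adjoining or overlapping matches run together. The E-box was searched as CANNTG, the site of many helix-loop-helix factors. The site of the oocyte homeobox factor NOBOX was searched as TAATTG in its simplest form. The box bound by the TATA-binding protein was searched as TATAAA, and the box of the factor NF-Y as CCAAT. Over 300 bases, 72.3% of the 32851 promoters in the table held an E-box, 37.4% a CCAAT box, 13.6% a TATA box and 8% a NOBOX-type site, so the first is ordinary in any promoter. Nlrp9a lies at chr7:26534773-26535072 (+ strand), Nlrp9c at chr7:26403651-26403950 (- strand) and Nlrp9b at chr7:20007773-20008072 (+ strand).
Nlrp9a: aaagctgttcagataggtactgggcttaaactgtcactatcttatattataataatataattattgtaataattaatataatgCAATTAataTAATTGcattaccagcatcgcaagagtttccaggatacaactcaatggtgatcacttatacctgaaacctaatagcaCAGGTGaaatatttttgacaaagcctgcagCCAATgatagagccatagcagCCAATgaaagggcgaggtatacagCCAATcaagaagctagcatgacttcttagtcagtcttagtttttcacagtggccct
Nlrp9c: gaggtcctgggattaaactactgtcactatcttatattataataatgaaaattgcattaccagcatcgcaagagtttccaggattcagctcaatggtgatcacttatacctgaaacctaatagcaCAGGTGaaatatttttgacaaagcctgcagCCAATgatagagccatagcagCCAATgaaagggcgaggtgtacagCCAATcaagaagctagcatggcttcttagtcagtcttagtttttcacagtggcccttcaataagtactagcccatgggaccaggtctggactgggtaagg
Nlrp9b: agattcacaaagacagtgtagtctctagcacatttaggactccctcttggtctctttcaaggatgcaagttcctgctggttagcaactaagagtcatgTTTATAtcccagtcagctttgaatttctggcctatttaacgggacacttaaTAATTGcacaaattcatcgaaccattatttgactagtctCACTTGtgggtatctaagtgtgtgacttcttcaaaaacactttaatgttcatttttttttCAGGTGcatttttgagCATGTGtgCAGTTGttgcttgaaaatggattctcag

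Nlrp9a and Nlrp9c matched at 244 of 253 aligned bases (96.4%) and held the same E-box (CAGGTG) followed by the same 3 CCAAT boxes in the same order. These sat at -81, -51, -30 and -6 from the start in Nlrp9a and at -125, -95, -74 and -50 in Nlrp9c, so the annotated starts differ by 44 bases within a shared sequence. Nlrp9a alone of this pair had NOBOX-type sites, at -167 and -158, in an A- and T-rich stretch that the Nlrp9c entry does not hold. Nlrp9b had no CCAAT box, 1 NOBOX-type site at -101 and 1 TATA-type match (TTTATA) at -152, and matched Nlrp9a at 160 of 249 aligned bases (64.3%). Its only entry has its start at 20008023, inside the gene span that begins at 19991393, so it may not be the first start of the gene. A match here describes letters, and it says nothing of whether a factor binds. Shares of aligned bases leave out gaps, and over the whole alignment Nlrp9a and Nlrp9c were identical at 70.3%. The first Nlrp4a entry matched Nlrp9a at 68% of aligned bases, so shares near that level do not mark close copies.

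The Nlrp4 promoters form a second group of copies. Nlrp4a lies at chr7:26435364-26435663 (+ strand) (the second of its 2 entries), Nlrp4b at chr7:10687543-10687842 (+ strand) (the first of 2) and Nlrp4c at chr7:6044911-6045210 (+ strand).
Nlrp4a: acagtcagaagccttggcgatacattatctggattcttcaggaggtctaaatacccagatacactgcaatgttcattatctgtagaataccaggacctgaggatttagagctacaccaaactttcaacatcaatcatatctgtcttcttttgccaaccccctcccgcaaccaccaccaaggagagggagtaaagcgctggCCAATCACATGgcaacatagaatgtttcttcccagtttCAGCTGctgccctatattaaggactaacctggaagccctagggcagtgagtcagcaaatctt
Nlrp4b: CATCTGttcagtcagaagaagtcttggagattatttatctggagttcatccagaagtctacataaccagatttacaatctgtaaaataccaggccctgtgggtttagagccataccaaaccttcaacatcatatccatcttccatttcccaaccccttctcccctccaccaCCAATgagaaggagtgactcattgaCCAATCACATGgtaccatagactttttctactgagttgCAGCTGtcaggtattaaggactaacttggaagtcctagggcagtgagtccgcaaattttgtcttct
Nlrp4c: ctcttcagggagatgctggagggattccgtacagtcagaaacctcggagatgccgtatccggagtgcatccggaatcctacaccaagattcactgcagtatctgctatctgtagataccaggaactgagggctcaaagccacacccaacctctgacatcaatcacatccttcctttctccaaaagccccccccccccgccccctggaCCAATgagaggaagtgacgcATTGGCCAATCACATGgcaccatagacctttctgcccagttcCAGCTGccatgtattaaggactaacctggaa

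In these 3 a CCAAT box ran directly into the E-box CACATG and was followed by the E-box CAGCTG. The 2 E-boxes sat at -45 and -12 in Nlrp4a, at -49 and -16 in Nlrp4b, and at -13 and 19 in Nlrp4c. Nlrp4a matched Nlrp4b at 226 of 281 aligned bases (80.4%), Nlrp4b matched Nlrp4c at 211 of 262 (80.5%) and Nlrp4a matched Nlrp4c at 206 of 263 (78.3%). Of this arrangement the Nlrp4e promoter shared only the E-box CAGCTG, at -2. It had another E-box (CATATG) at 28 and a single CCAAT box on the other strand at -229, and matched Nlrp4b at 155 of 265 aligned bases (58.5%). The first Nlrp4a entry, with its start at 26435113, did not share the arrangement. It had no CCAAT box and E-boxes at -80 and 44. It matched Nlrp4b at 162 of 258 aligned bases (62.8%) and Nlrp4c at 151 of 258 (58.5%). No Nlrp4 entry had a TATA box or a NOBOX-type site.

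The poly(A) libraries held 4843964 to 15412200 gene counts (median 9510351) and the RiboMinus libraries 8492102 to 35429028 (median 18164035). The deleted genes followed the labels: the log2 change of Dis3 was -2.18 at GV, -2.57 at GV3h and -3.63 at MII in poly(A) Dis3 cKO oocytes, and -3.13 in adult RiboMinus libraries. At p20 it was -2.74 in Dis3 cKO and -2.25 in dcKO, and that of Exosc10 was -5.22 in Exosc10 cKO and -4.01 in dcKO. All 10 oocyte markers were present in every group, with summed levels of 5992 to 19940 CPM (counts relative to the library total). Sums over listed genes, here and below, were not scaled further. Levels of single genes were also scaled between libraries with edgeR's TMM factors. The 12 granulosa and cumulus markers summed to 49.6 to 211 CPM over the poly(A) groups and 78.2 to 205 CPM over the RiboMinus groups, and Ptx3 was at 0 in 11 of the 12 groups. The 4 leukocyte markers summed to 2.81 to 63.2 CPM; in 4 of the 12 groups Ptprc and Adgre1 were both at 0. Levels below are in CPM and are compared between groups for 1 gene, not between genes, because transcript lengths were not used here. A gene is called where edgeR's quasi-likelihood test gave an adjusted p (Benjamini-Hochberg, all genes tested) under 0.05; all 8 members passed the filter on low counts in every comparison.

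**Figure D1:**
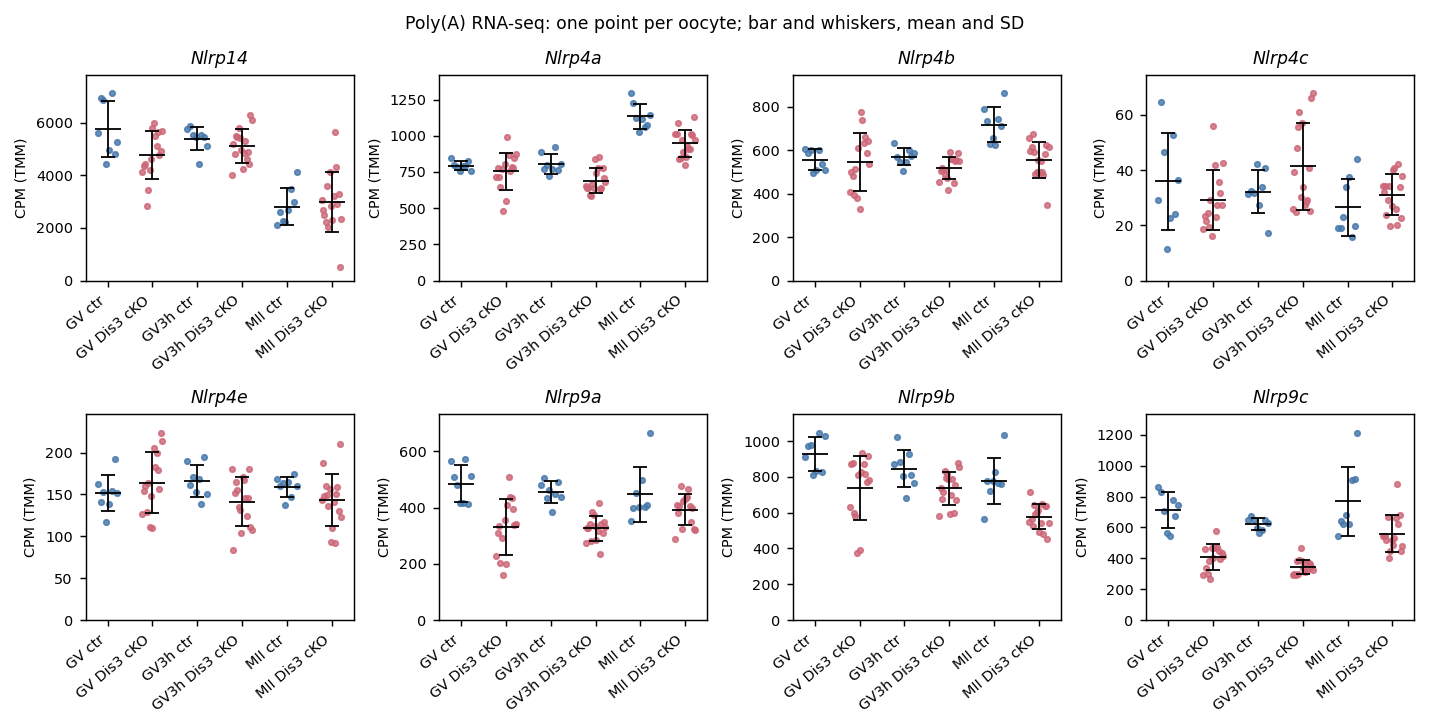
Level of each member (CPM, linear axis from 0) in every poly(A) oocyte by stage and genotype; points are oocytes (blue control, red Dis3 cKO), and bar and whiskers are mean and SD. On this scale Nlrp9c is lower in Dis3 cKO at all 3 stages (at MII the call ended with spike-in scaling), Nlrp14 is lower in MII eggs than in GV oocytes, and Nlrp4a and Nlrp4b are higher in control MII eggs, though not with spike-in scaling.

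In GV oocytes without DIS3, the 3 Nlrp9 genes fell and no member rose. Nlrp9c ranged from 546 to 862 CPM in 8 control oocytes (median 728) and from 267 to 579 CPM in 15 Dis3 cKO oocytes (median 416). All but 1 of the 15 Dis3 cKO oocytes lay below the lowest control oocyte. The change was -0.81 on the log2 scale (SE 0.11, edgeR adjusted p = 6.55e-08), a level of 0.572 times that of controls. Nlrp9a, its nearest copy, ranged from 412 to 571 CPM in controls (median 494) and from 161 to 509 CPM in Dis3 cKO (median 337), with 12 of 15 below every control. It fell by 0.56 (SE 0.12, edgeR adjusted p = 0.000262). Nlrp9b had 809 to 1048 CPM in controls (median 943) and 375 to 934 CPM in Dis3 cKO (median 810), and these ranges overlapped more, with 7 of 15 below every control. It fell by 0.33 (SE 0.11, edgeR adjusted p = 0.0176), a call that was lost when only these 2 groups were fitted (adjusted p = 0.0726).

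These 3 of 8 members stand against 21.9% of the 17389 genes tested that were called at GV, 13.6% higher and 8.33% lower. The members' median change was -0.28, and that of all genes was 0.04. The other 5 did not pass: Nlrp14 had a change of -0.27 (SE 0.16, edgeR adjusted p = 0.24), Nlrp4c of -0.30, Nlrp4a of -0.07, Nlrp4b of -0.02 and Nlrp4e of 0.12. Their ranges overlapped between genotypes, and Dis3 cKO oocytes of Nlrp4b lay on both sides of the controls, 5 of 15 below and 6 above. The Dis3 cKO group thus varied more than controls for this gene, with an SD of 134 against 48.2 CPM. With only the oocytes numbered 1 to 8 in their titles, 5 members fell, with Nlrp9a at -0.90, Nlrp14 at -0.44 (edgeR adjusted p = 0.0118) and Nlrp4b at -0.30 (adjusted p = 0.0128). In that fit 23.1% of all genes were called. Nlrp9a had 161 to 356 CPM in Dis3 cKO oocytes 1 to 8 and 337 to 509 CPM in those numbered 10 to 16, and Nlrp4b had 328 to 611 and 538 to 778 CPM, where controls had 493 to 606 CPM. What the numbers stand for is not given. In the same oocytes 2 of 9 granulosa and cumulus markers tested were lower (summed level 75.6 to 196 CPM, against 96.7 to 211 CPM in controls) and 1 of 2 leukocyte markers tested was higher; their part in these changes was not tested.

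After 3 h in culture Nlrp9c separated the genotypes fully. Control oocytes had 564 to 676 CPM (median 637) and Dis3 cKO oocytes 292 to 464 CPM (median 339), so every one of the 16 lay below every control. The fall was 0.85 (SE 0.11, edgeR adjusted p = 5.58e-09), and 9.28% of all genes had ranges that did not overlap in this comparison. Nlrp9a fell by 0.48 (SE 0.12, edgeR adjusted p = 0.000924), from 382 to 505 CPM in controls (median 456) to 234 to 416 CPM in Dis3 cKO (median 329), with 14 of 16 below every control. Nlrp4a, at 725 to 925 CPM in controls (median 785) and 585 to 853 CPM in Dis3 cKO (median 660), fell by 0.22 (SE 0.08, edgeR adjusted p = 0.018). Only Nlrp9c kept its call when libraries were scaled to the ERCC spike-in RNA, where 28.2% of all genes were called. The edgeR adjusted p was then 0.0548 for Nlrp9a and 0.234 for Nlrp4a. The median change of all genes was 0.04 on that scale and 0.07 with TMM.

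The other members at GV3h had changes between -0.23 (Nlrp4e, edgeR adjusted p = 0.116) and 0.36 (Nlrp4c, adjusted p = 0.189). With 38.6% of genes called at GV3h (22.9% higher, 15.7% lower), 3 of 8 is close to the share of all genes. With only the 2 groups fitted more members were called, and the share of all genes called was 54.6%. The members' median change was -0.21, and that of all genes was 0.07. Granulosa markers summed to 49.6 to 98.7 CPM in Dis3 cKO and 73.1 to 113 CPM in controls, and 1 of 9 tested was lower. Leukocyte markers summed to 28.6 to 63.2 CPM in Dis3 cKO and 15.2 to 30.3 CPM in controls, and 1 of 2 tested was higher. The part of either was not tested.

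In MII eggs 4 members were lower in Dis3 cKO and none was higher, with TMM scaling but not with ERCC scaling. Nlrp9b ranged from 566 to 1032 CPM in controls (median 772) and from 453 to 715 CPM in Dis3 cKO (median 579), a fall of 0.43 (SE 0.11, edgeR adjusted p = 0.000623). Nlrp9c ranged from 546 to 1215 CPM in controls (median 661) and from 403 to 885 CPM in Dis3 cKO (median 537), a fall of 0.46 (SE 0.11, edgeR adjusted p = 0.000794), with 11 of 16 below every control. Nlrp4b fell by 0.37 (SE 0.10, edgeR adjusted p = 0.00142), from 622 to 862 CPM (median 723) to 349 to 676 CPM (median 569). Nlrp4a fell by 0.26 (SE 0.08, edgeR adjusted p = 0.00515), from 1029 to 1293 CPM (median 1121) to 799 to 1131 CPM (median 949). For both Nlrp4 genes most eggs lacking DIS3 lay below every control, 14 of 16 for Nlrp4a and 13 of 16 for Nlrp4b.

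Of all genes, 42.1% were called at MII, 27.3% higher and 14.8% lower, and the median change of all genes was 0.16 against -0.22 for the members. Nlrp9a, which fell at GV and GV3h, had a change of -0.19 at MII (edgeR adjusted p = 0.201), with medians of 406 CPM in controls and 405 CPM in Dis3 cKO. All 4 MII calls ended under ERCC scaling, which called 41.9% of all genes. It put the median change of all genes at 0.52 and that of Nlrp9c at -0.08, Nlrp9b at -0.04, Nlrp4b at -0.01 and Nlrp4a at 0.08. Relative to all genes the members still lay lower under that scaling, while the amount of poly(A) RNA per egg, as the spike-in measures it, was not shown to fall. Granulosa markers summed to 51.6 to 84.3 CPM in these Dis3 cKO eggs and 86.2 to 133 CPM in controls, with 6 of 9 tested lower and 1 higher; their part was not tested.

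Nlrp14 itself had 2120 to 4127 CPM in control MII eggs (median 2637) and 535 to 5640 CPM in Dis3 cKO eggs (median 2890). The change of 0.09 (SE 0.16) did not pass (edgeR adjusted p = 0.699). The lowest value belongs to 1 egg, numbered 15 in its title, and leaving it out moved no count of called members past 1.5 times. That library stood apart as a whole, with gene counts 14.39 times its ERCC counts, against 48.59 to 80.98 times in the other Dis3 cKO MII eggs.

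The question of whether the loss of DIS3 acted differently by stage was put to the model directly, as the difference of the knockout effects. For GV3h against GV no member was called (2 of 8 at an unadjusted p under 0.05, and none with DESeq2), with 2.04% of all genes called. For MII against GV again no member was called by edgeR (3 of 8 at an unadjusted p under 0.05, 1 with DESeq2), with 13.2% of all genes called. The Nlrp9 pair had differences of 0.35 (Nlrp9c, edgeR adjusted p = 0.152) and 0.37 (Nlrp9a, adjusted p = 0.157), and Nlrp4b had -0.35 (adjusted p = 0.0885). With ERCC scaling, which called 30.1% of all genes for MII against GV and put their median at 0.68, 4 members were called, all with positive differences: Nlrp14 (1.09, edgeR adjusted p = 0.0213), Nlrp4c (1.15, adjusted p = 0.0319), Nlrp9a (1.04, adjusted p = 0.00642) and Nlrp9c (1.00, adjusted p = 0.00314). Whether a fall differed between GV and MII thus depended on the scaling.

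**Figure D2:**
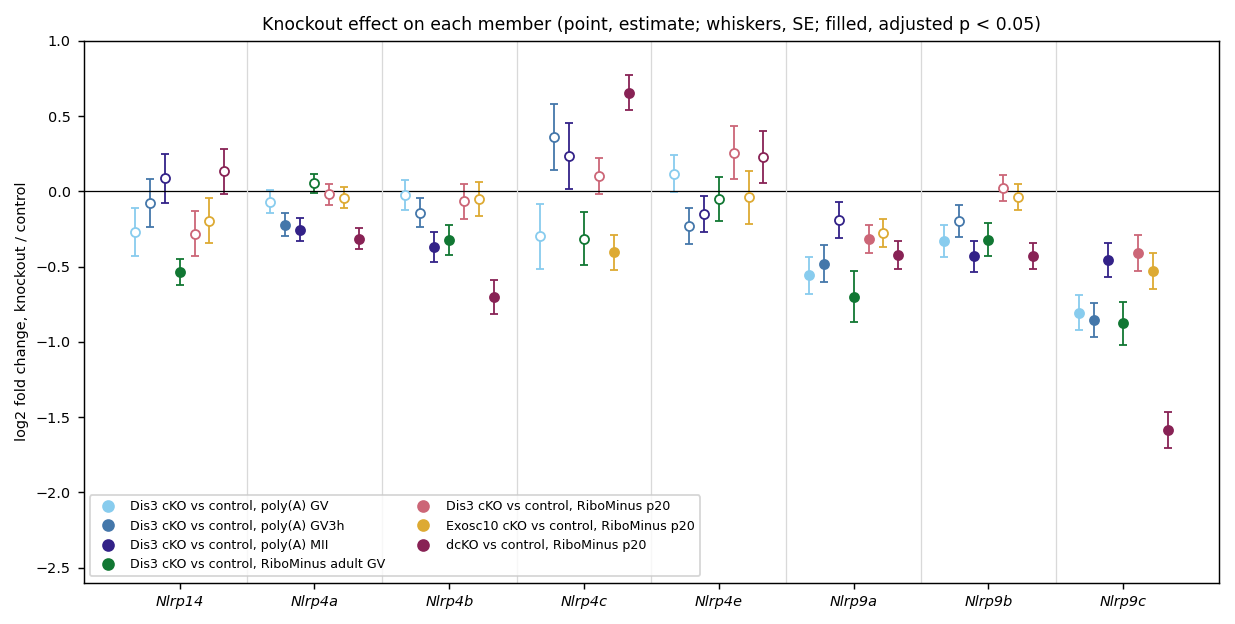
Change (log2, knockout against control) of each member in the 3 poly(A) and 4 RiboMinus comparisons; bars are 1 SE and filled points passed the threshold on the adjusted p. With TMM scaling Nlrp9c passed in all 7 comparisons, from -0.41 to -1.59 (the MII and Exosc10 cKO calls ended with spike-in scaling, and those of both Dis3 cKO RiboMinus groups and Exosc10 cKO with counts summed by tag), and Nlrp4c was the single member above 0 past the threshold, at 0.66 in the double knockout.

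Control oocytes changed little for these genes in the first 3 h and much more by MII. No member was called between GV3h and GV controls (none at an unadjusted p under 0.05 and none with DESeq2), where 2.71% of all genes were. From GV to MII, where 58.5% of all genes were called (22.7% higher, 35.8% lower), Nlrp14 fell, and Nlrp4a and Nlrp4b rose in CPM but not with ERCC scaling. Nlrp14 went from 4427 to 7109 CPM (median 5440) to 2120 to 4127 CPM (median 2637), with no overlap and a fall of 1.03 (SE 0.19, edgeR adjusted p = 1.86e-06). Nlrp4a went from 755 to 846 CPM to 1029 to 1293 CPM, a rise of 0.51 (SE 0.09, edgeR adjusted p = 1.07e-06), and Nlrp4b from 493 to 606 CPM to 622 to 862 CPM, a rise of 0.37 (SE 0.11, edgeR adjusted p = 0.00424). Ranges did not overlap for any of these 3 genes, as for 28.4% of all genes.

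Each change in CPM is a share of the library, and the library's own base moved. Scaled to the ERCC spike-ins, the median change of all genes from GV to MII in controls was -2.12 on the log2 scale (-0.27 with TMM). On that scale Nlrp4a was at -1.34 and Nlrp4b at -1.50, so both fell relative to the spike-in while lying above the median gene. The direction for these 2 genes therefore flips with the scaling, and the fall of Nlrp14 does not. No RiboMinus libraries came from MII eggs, so loss of RNA and loss of its poly(A) tail could not be told apart for any of these genes. In controls, granulosa markers were lower in MII for 6 of 9 tested and higher for 1, and their part was not tested.

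Dis3 cKO oocytes showed more calls across maturation, in larger groups. Here 63.3% of all genes were called from GV to MII and 5 members with them. Nlrp14 fell by 0.68 (SE 0.13, edgeR adjusted p = 7.68e-06). Nlrp9b fell by 0.35 as well (SE 0.09, adjusted p = 0.000427). Nlrp9c rose by 0.46 (SE 0.10, edgeR adjusted p = 2.9e-05), from a median of 416 to 537 CPM, and Nlrp4a rose by 0.33 and Nlrp9a by 0.25 (adjusted p = 0.0277). With ERCC scaling, which moved the median of all genes from -0.26 to -1.5, the values of these 3 were -0.77, -0.95 and -0.96. They thus changed sign with the scaling and lay above the median gene on both scales. Of 9 granulosa markers tested, 6 were lower and 1 higher in these MII eggs, and their part was not tested. From GV to GV3h 17.3% of all genes were called and 1 member, Nlrp4c, which rose by 0.50 (SE 0.18, edgeR adjusted p = 0.0437) from a median of 27.2 to 36.6 CPM, a call that was lost without GV control oocyte 1 (adjusted p = 0.0504) and with only the oocytes numbered 1 to 8 (adjusted p = 0.0612). With ERCC scaling, which called 37% of all genes and put their median at 0.47, 5 members were called from GV to GV3h. On that scale the values of Nlrp4b, Nlrp9a, Nlrp9b and Nlrp9c turned from negative to positive. Nlrp4c is the member with the fewest reads, 58 to 1015 per poly(A) library, so its counting error is the widest.

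**Figure D3:**
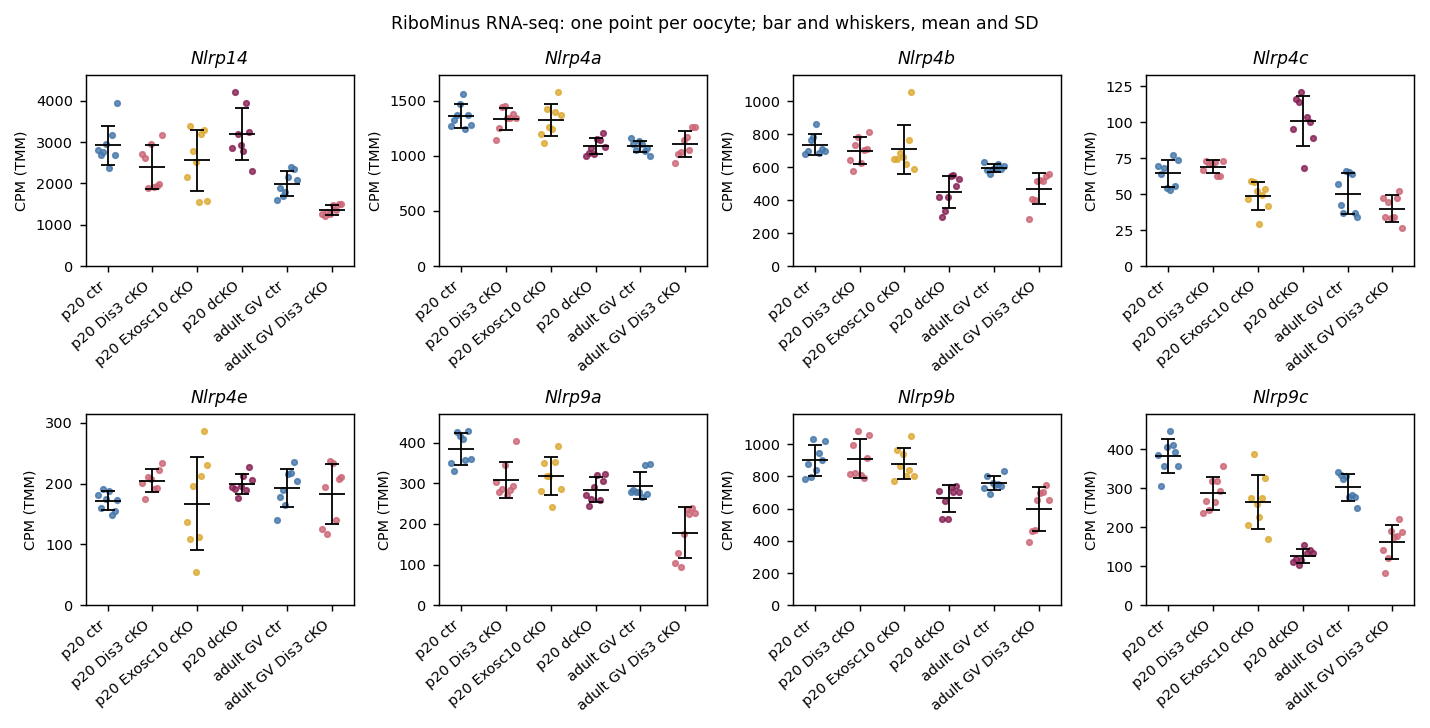
Level of each member (CPM, linear axis from 0) in every RiboMinus oocyte by age and genotype; points are oocytes, and bar and whiskers are mean and SD. Nlrp9c has its lowest mean in the p20 double knockout (127 CPM), though single adult Dis3 cKO oocytes reach lower (82.8 CPM) than any there (103 CPM), and Nlrp4c has its highest mean there (101 CPM).

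RiboMinus libraries of adult GV oocytes gave the same question in RNA that was not selected for a tail. In Dis3 cKO, 5 of 8 members were lower and none was higher, against 28.1% of all genes called (15.7% higher, 12.4% lower); the members' median was -0.32 and that of all genes 0.03. Nlrp9c had 250 to 343 CPM in controls (median 302) and 82.8 to 221 CPM in Dis3 cKO (median 175), a fall of 0.88 (SE 0.14, edgeR adjusted p = 0.000173). Nlrp9a had 267 to 348 CPM in controls (median 279) and 93.9 to 240 CPM in Dis3 cKO (median 200), a fall of 0.70 (SE 0.17, edgeR adjusted p = 0.00487). In both genes all 8 Dis3 cKO oocytes lay below all 8 controls.

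Nlrp14 also separated the adult genotypes, with 1596 to 2403 CPM in controls (median 1983) and 1199 to 1498 CPM in Dis3 cKO (median 1333), a fall of 0.54 (SE 0.09, edgeR adjusted p = 0.000152). Nlrp4b fell by 0.33 (SE 0.10, edgeR adjusted p = 0.0194), from 557 to 632 CPM (median 590) to 286 to 556 CPM (median 514), and Nlrp9b by 0.32 (SE 0.11, adjusted p = 0.0324), from 692 to 834 CPM to 394 to 750 CPM. Ranges did not overlap for 4 members (Nlrp14, Nlrp4b, Nlrp9a and Nlrp9c), as for 6.49% of all genes. Nlrp4a, at medians of 1090 and 1099 CPM, had a change of 0.05 (edgeR adjusted p = 0.578), and Nlrp4e of -0.05 (adjusted p = 0.816).

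The 8 oocytes of each adult group carry 2 title tags, 4 oocytes each, and the tags differ between genotypes. In Dis3 cKO, Nlrp9a was 125 ± 36.7 CPM (SD, n = 4) with one tag and 232 ± 7.13 CPM (SD, n = 4) with the other, while controls were 279 ± 2.11 and 308 ± 44.3 CPM (SD, n = 4 each). Nlrp14 was 1259 ± 47.0 and 1455 ± 69.8 CPM in Dis3 cKO and 1745 ± 128 and 2248 ± 157 CPM in controls (SD, n = 4 each). Both knockout tags lay below both control tags for the 5 called members, but not for Nlrp4a or Nlrp4e. The same order held for Nlrp4c, which was not called (39.8 and 40 CPM against 50.7 and 50.1 CPM). The share of all genes with this order was not counted, so it does not set the called members apart. When counts were summed by tag, leaving 2 values a group, none of the 5 was called, with Nlrp9c at -0.91 (edgeR adjusted p = 0.154) and Nlrp14 at -0.57 (adjusted p = 0.205). That fit called 0% of all genes. What a tag stands for is not given, and each tag occurs in 1 genotype only, so no fit with tag as a block was possible. The median of all genes moved to -0.52 with ERCC scaling, on which Nlrp4a stood at -0.51. That scaling called all 8 members and 44.6% of all genes. Granulosa markers summed to 93.0 to 173 CPM in Dis3 cKO and 78.2 to 138 CPM in controls, with 1 of 9 tested higher and none lower. Of 10 oocyte markers, 2 were higher and 4 lower. The part of either was not tested.

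At p20 the 3 knockouts share 1 set of 8 control oocytes, so their changes are not independent of each other. Loss of DIS3 alone lowered Nlrp9a by 0.32 (SE 0.09, edgeR adjusted p = 0.0264), and likewise its copy Nlrp9c by 0.41 (SE 0.12, adjusted p = 0.0269), 2 of 8 members against 7.37% of all genes (3.61% higher, 3.76% lower). Loss of EXOSC10 alone lowered Nlrp9c by 0.53 (SE 0.12, edgeR adjusted p = 0.00359), and in the same oocytes Nlrp4c by 0.41 (SE 0.12, adjusted p = 0.0271), 2 of 8 against 7.45% (3.95% higher, 3.5% lower). Nlrp9a had a change of -0.28 there that just missed the threshold (edgeR adjusted p = 0.0553). All member ranges overlapped those of controls in both single knockouts. None of these 4 calls was left when counts were summed by title tag, where 1.37% of all genes were called in Dis3 cKO and 0.832% in Exosc10 cKO. Both Exosc10 cKO calls also ended with ERCC scaling (edgeR adjusted p = 0.329 for Nlrp9c and 0.422 for Nlrp4c). That fit called 2.29% of all genes, with their median at 0, against 0.01 with TMM. The Nlrp4c call was also lost with only the 2 groups fitted (edgeR adjusted p = 0.0598) or without the filter (0.0522).

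With both ribonucleases deleted more members changed, and 53.7% of all genes were called (26.6% higher, 27.1% lower). Of the members 5 were lower and 1 was higher; their median was -0.37 and that of all genes -0.01. Nlrp9c had 305 to 446 CPM in controls (median 390), 236 to 358 CPM in Dis3 cKO (median 280), 170 to 388 CPM in Exosc10 cKO (median 268) and 103 to 155 CPM in dcKO (median 126). Every dcKO oocyte lay below every oocyte of the other 3 groups. Of all genes, 18.4%, 13.6% and 11.8% had ranges in dcKO that did not overlap those of control, Dis3 cKO and Exosc10 cKO. Nlrp9c was at 0.333 times its control level in dcKO, a log2 change of -1.59 (SE 0.12, edgeR adjusted p = 2.82e-12), the farthest of any member in these 7 knockout comparisons. The call held with counts summed by tag (-1.60, adjusted p = 0.000225).

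Nlrp4b had 681 to 863 CPM in controls (median 706) and 295 to 551 CPM in dcKO (median 454), and fell by 0.70 (SE 0.12, edgeR adjusted p = 4.18e-06). Nlrp9b had 782 to 1035 CPM in controls (median 889) and 537 to 738 CPM in dcKO (median 705), and fell by 0.43 (SE 0.09, adjusted p = 9.45e-05). Nlrp9a had 330 to 428 CPM in controls (median 385) and 245 to 323 CPM in dcKO (median 281), and fell by 0.42 (SE 0.09, edgeR adjusted p = 0.000208). Nlrp4a fell by 0.31 (SE 0.07, edgeR adjusted p = 0.000199), from 1240 to 1565 CPM (median 1349) to 1002 to 1204 CPM (median 1076), and its adjusted p was 0.0814 with ERCC scaling. For all 5 lower members the dcKO and control ranges did not overlap, as for 18.4% of all genes.

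Nlrp4c went the other way. It had 52.9 to 77.5 CPM in controls (median 66.5), 62.4 to 73.3 CPM in Dis3 cKO, 29.2 to 58.9 CPM in Exosc10 cKO and 68.1 to 121 CPM in dcKO (median 102). It rose by 0.66 in dcKO (SE 0.12, edgeR adjusted p = 1.7e-05), with 7 of 8 oocytes above every control. Nlrp14 (0.13, edgeR adjusted p = 0.475) and Nlrp4e (0.23, adjusted p = 0.279) were not called. Nlrp14 had 2293 to 4213 CPM in dcKO and 2375 to 3935 CPM in controls, almost the same range.

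The dcKO oocytes were then set against each single knockout. Against Dis3 cKO, 51.5% of all genes were called, and of the members 4 were lower (Nlrp4a, Nlrp4b, Nlrp9b, Nlrp9c) and 2 higher. The higher ones were Nlrp4c (0.55, SE 0.12, edgeR adjusted p = 0.000192) and Nlrp14 (0.42, SE 0.15, adjusted p = 0.0213). Against Exosc10 cKO, 49.2% of all genes were called, and the same 4 members were lower while Nlrp4c was higher by 1.06 (SE 0.12, edgeR adjusted p = 9.48e-09). Its ranges did not overlap, as for 11.8% of all genes. The log2 difference of Nlrp9c was -1.18 from Dis3 cKO and -1.06 from Exosc10 cKO. With ERCC scaling 3 members were called in each comparison, Nlrp14, Nlrp4c and Nlrp9c against Dis3 cKO (36.9% of all genes) and Nlrp4b, Nlrp4c and Nlrp9c against Exosc10 cKO (31.6%). Nlrp9a did not differ past the threshold from either single knockout (-0.11, adjusted p = 0.336, and -0.15, adjusted p = 0.192); whether Nlrp9c and Nlrp9a differed in this was not tested.

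A term for the change in dcKO beyond the sum of both single changes on the log2 scale was called for 31.4% of all genes and for 6 members. It was negative for Nlrp9c (-0.65, SE 0.17, edgeR adjusted p = 0.00367), Nlrp4b (-0.58, SE 0.16, adjusted p = 0.006), Nlrp9b (-0.41, SE 0.12, adjusted p = 0.0106) and Nlrp4a (-0.25, SE 0.10, adjusted p = 0.0437). It was positive for Nlrp4c (0.96, SE 0.17, edgeR adjusted p = 4.63e-05) and Nlrp14 (0.61, SE 0.21, adjusted p = 0.0274). With ERCC scaling (13.6% of all genes called) only Nlrp4c kept its call, and with counts summed by tag (6.25%) only Nlrp4c and Nlrp14 did. Granulosa markers summed to 129 to 205 CPM in dcKO and 122 to 179 CPM in controls, with 1 of 8 tested higher and 2 lower; their part was not tested.

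The log2 ratio of Nlrp9c to Nlrp9a counts within an oocyte sets these 2 copies against each other and does not depend on scaling. At p20 it was -0.01 ± 0.16 in controls, -0.10 ± 0.16 in Dis3 cKO and -0.29 ± 0.30 in Exosc10 cKO, and -1.17 ± 0.15 in dcKO (SD, n = 8 each). In dcKO it ran from -1.34 to -0.96, and in controls from -0.26 to 0.21, so the groups stood apart. In poly(A) GV3h oocytes it was 0.46 ± 0.08 in controls (SD, n = 8) and 0.09 ± 0.18 in Dis3 cKO (SD, n = 16), with overlap. The ratio shows unequal change of the 2 counts, and how reads that fit both copies entered it was not tested.

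Between control oocytes of the 2 ages, 19.1% of all genes were called, 8.69% higher and 10.4% lower in adults, and 3 members were lower in adults. The count was 6 with DESeq2 (16.9% of all genes called), 6 with only the 2 groups fitted (33.5%) and 8 with ERCC scaling (86.1%), which put the median of all genes at -1.69. Nlrp14 had 2375 to 3935 CPM at p20 (median 2782) and 1596 to 2403 CPM in adults (median 1983), a difference of -0.55 (SE 0.14, edgeR adjusted p = 0.00315). Nlrp4a had 1240 to 1565 CPM at p20 and 1003 to 1167 CPM in adults (-0.33, SE 0.07, edgeR adjusted p = 0.00037), and Nlrp9a 330 to 428 and 267 to 348 CPM (-0.39, SE 0.13, adjusted p = 0.0302). Of the rest, 4 had values from -0.36 to -0.25 that did not pass, and Nlrp4e had 0.17 (edgeR adjusted p = 0.539). Ranges did not overlap for Nlrp4a and for Nlrp4b (556.8 to 632 CPM in adults, 681 to 863 CPM at p20; edgeR adjusted p = 0.0514), as for 5.39% of all genes. None of the 3 calls was left with counts summed by tag, where 1.04% of all genes were called.

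The ages also differed in spike-in content. Gene counts were 403 ± 48.5 times ERCC counts in adult controls and 1267 ± 179 times in p20 controls (SD, n = 8 each). With ERCC scaling the median difference of all genes, adult against p20, was -1.69, and Nlrp4e stood at -1.53. In adult controls 2 of 10 granulosa and cumulus markers tested were lower than at p20 and none was higher. They summed to 78.2 to 138 CPM, against 122 to 179 CPM at p20. Of 10 oocyte markers, 5 were lower and 1 higher in adults. The part of the spike-in content or of these markers in the differences above was not tested. The effect of losing DIS3 was not shown to differ between ages for any member (0 called by edgeR, 4 of 8 at an unadjusted p under 0.05, none with DESeq2; 9.32% of all genes called), though all but Nlrp4a had a more negative value in adults.

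Across the 12 groups, Nlrp14 had its highest poly(A) levels in the 4 GV and GV3h groups (means of 4764 to 5744 CPM) and its lowest in the 2 MII groups (2807 and 2977 CPM), neighbours that lay within each other's spread. Nlrp9c ran from 346 ± 46.3 CPM (SD, n = 16) in GV3h Dis3 cKO, through 408 ± 83.2 CPM (SD, n = 15) in GV Dis3 cKO and 561 ± 119 CPM (SD, n = 16) in MII Dis3 cKO, to 769 ± 225 CPM (SD, n = 8) in MII controls. The 3 Dis3 cKO groups were its 3 lowest poly(A) levels. Nlrp4e had poly(A) means of 141 to 166 CPM and was called in none of the 18 comparisons with TMM scaling, all groups and oocytes fitted and no replicate block. With ERCC scaling it was called from GV to MII in controls (-1.78) and in Dis3 cKO (-1.51), in adult Dis3 cKO (-0.65) and between ages (-1.53), in each of which all 8 members were called. The share of all genes called there was 87.8%, 83.6%, 44.6% and 86.1%, in the same order.

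As a description of likeness, the log2(CPM + 1) values of each member were correlated with those of all genes tested over all libraries, which share stage, genotype and depth. Over 71 poly(A) libraries Nlrp14 ran most closely with Tle6 (r = 0.933) and Cd9 (r = 0.929), Nlrp4a with Wdr26 (r = 0.891) and Tcf20 (r = 0.88), Nlrp9c with Canx (r = 0.838) and Fbxo30 (r = 0.818), and Nlrp9a with Nlrp9c itself (r = 0.777). Tle6 encodes a part of the subcortical maternal complex and Cd9 the egg surface protein needed for sperm fusion. Over 48 RiboMinus libraries Nlrp14 was nearest to Nlrp5 (r = 0.879), Nlrp4a to Nlrp4b (r = 0.811), Nlrp9b to Nlrp4b (r = 0.85), and Nlrp9c to Fbxw23 (r = 0.919). Nlrp4e had no close companion in either set (r = 0.57 with Jak2 and r = 0.533 with Rnase6). Between members the r of Nlrp9a with Nlrp9c was 0.777 over all poly(A) libraries and 0.649 after removing group means, and that of Nlrp14 with Nlrp4a was -0.551 and -0.102, so the last was weak within groups.

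Of 22 other NLR genes listed for comparison, 7 were tested in poly(A) libraries and 8 to 10 in RiboMinus libraries. Calls of listed genes other than the members, here and below, rest on TMM scaling with single oocytes. They were not examined with ERCC scaling, counts summed by tag or the other alternatives. In dcKO 2 of 9 were higher and 5 lower, beside 26.6% and 27.1% of all genes. Nlrp2 and Nlrp4f, both parts of the subcortical maternal complex, fell by 1.36 (SE 0.17, edgeR adjusted p = 3.48e-08) and, for the latter, by 0.96 (SE 0.11, adjusted p = 1.21e-08), and Nlrp4g fell by 0.80. Naip1 and Nlrc4, which act together in sensing bacterial proteins, had log2 changes of -2.21 and -1.84. Nlrp5, the central gene of the complex, rose by 0.67 (SE 0.13, edgeR adjusted p = 4.23e-05), and Nlrp3 rose by 2.06 (SE 0.83, adjusted p = 0.036).

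In Dis3 cKO against control, 3 of 7 other NLR genes were lower at GV, 2 at GV3h and 2 at MII, where 8.33%, 15.7% and 14.8% of all genes were lower. Nlrp5 was higher at MII (0.66, SE 0.15, edgeR adjusted p = 0.000354). In adult RiboMinus libraries 3 of 8 were lower, as were 12.4% of all genes. Of the 8 genes of the subcortical maternal complex, 6 were lower and 1 higher from GV to MII in controls, where 35.8% of all genes were lower, and 4 were higher and none lower in MII Dis3 cKO, where 27.3% of all genes were higher. In Dis3 cKO at GV, 2 of the 8 were lower and none higher, beside 8.33% of all genes lower. In adult RiboMinus libraries 6 of the 8 were lower and none higher (median -0.44), beside 12.4% of all genes lower.

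Classical inflammasome genes were scarce. The 9 listed partners summed to 21.1 to 110 CPM over all groups, Il1b was at 0 in 11 of the 12 groups, and 5 were tested in poly(A) and 2 or 3 in RiboMinus libraries. Nek7, a kinase that binds NLRP3, fell in Dis3 cKO at GV (-0.47, SE 0.15, edgeR adjusted p = 0.0182), GV3h (-0.78, SE 0.15, adjusted p = 2.37e-05) and MII (-0.92, SE 0.15, adjusted p = 6.67e-07), and in dcKO (-0.53, SE 0.11, adjusted p = 7.84e-05). Dhx9, the helicase known to work with NLRP9B, fell by 0.50 (SE 0.13, edgeR adjusted p = 0.00173) in dcKO. Of the 5 inflammasome partners tested in poly(A) Dis3 cKO oocytes, 1 was lower at each stage and 1 was higher at MII. At MII 14.8% of all genes were lower and 27.3% higher. Both partners tested in dcKO were lower, beside 27.1% of all genes. No inflammasome partner was called in adult Dis3 cKO, p20 Dis3 cKO or Exosc10 cKO. Uhrf1, the partner of NLRP14, fell in Dis3 cKO by 0.49, 0.39 and 0.46 at GV, GV3h and MII (SE 0.11 each, edgeR adjusted p = 0.000625, 0.00411 and 0.000585) and by 0.56 in dcKO (SE 0.11, adjusted p = 3.9e-05). In those 4 comparisons Nlrp14 was not called. In adult RiboMinus Dis3 cKO oocytes both fell, Uhrf1 by 0.47 (SE 0.07, edgeR adjusted p = 9.18e-05) and Nlrp14 by 0.54 (SE 0.09, adjusted p = 0.000152). The Nlrp14 call ended with counts summed by tag, a fit that called 0% of all genes. In Exosc10 cKO Uhrf1 fell by 0.65 (SE 0.11, edgeR adjusted p = 6.17e-05), and Nlrp14 had a change of -0.20 (SE 0.15, adjusted p = 0.501). Kdm2a, the other listed partner of NLRP14, was not called in poly(A) Dis3 cKO oocytes and rose by 0.35 in dcKO (SE 0.10, edgeR adjusted p = 0.00297). In p20 Dis3 cKO neither Uhrf1 nor Kdm2a was called.

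The CUT&Tag files give peaks called with SEACR in each library by itself, after random sampling of every library to the same number of reads. Lists titled pols2s5, taken here as RNA polymerase II from the series title, come from adult controls, p20 controls and adult Dis3 cKO, 3 lists each; H3K27me3, a mark of Polycomb repression, adds p20 dcKO. A polymerase peak overlapped (by at least 1 base) the gene body of a member in 70 of 72 pairs of member and list (97.2%). Protein-coding genes with spans in the members' range had one in 39.0% to 52.1% of cases in the adult control lists, 66.0% to 71.1% at p20 and 50.3% to 82.1% in adult Dis3 cKO. Near the annotated starts of the 7 members with a RefSeq promoter there were peaks in 4 of 63 pairs within 1 kb (6.35%) and in 13 of 63 within 5 kb (20.6%). Of all protein-coding genes, 2.9% to 15.3% had one within 1 kb and 8.87% to 40.6% within 5 kb, depending on the list. The third adult Dis3 cKO list, the longest with 122606 peaks, gave 3 of the 4 pairs within 1 kb and 6 of the 13 within 5 kb. Without it, an alternative chosen after seeing the data, 1 of 56 pairs (1.79%) had a peak within 1 kb, under the 2.9% to 11.5% of all genes, and 7 of 56 (12.5%) within 5 kb, against 8.87% to 30.6%. In adult controls 0 of 21 pairs had a peak within either distance. In those lists 2.9% to 5.76% of all protein-coding genes had one within 1 kb and 8.87% to 15.7% within 5 kb.

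**Figure D4:**
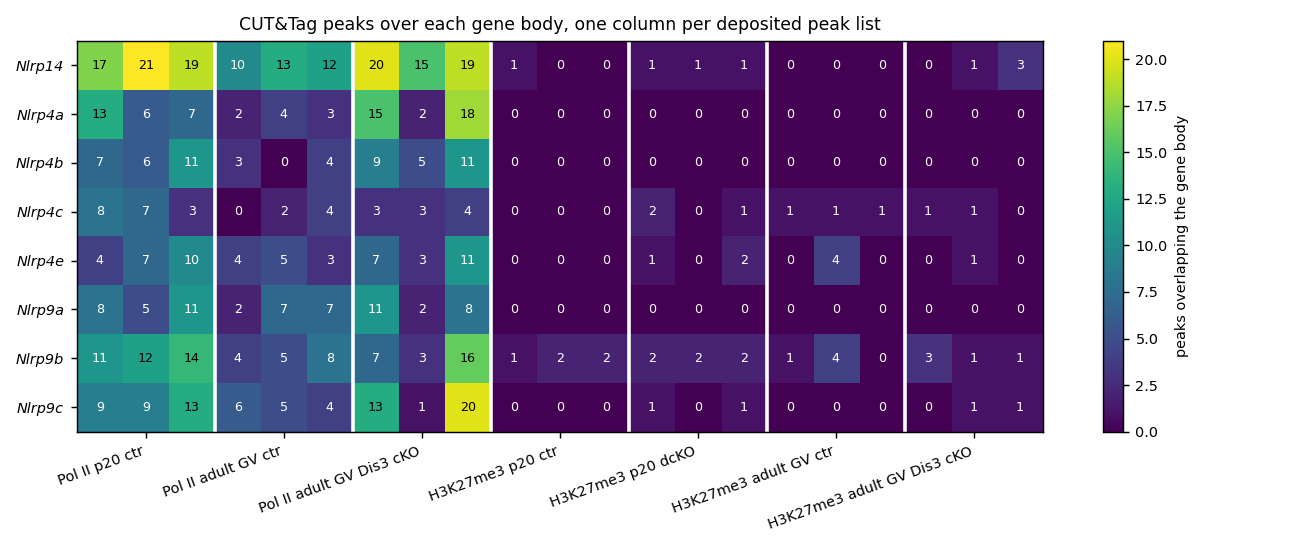
Number of peaks over each member's gene body (rows) in each CUT&Tag list (columns), 9 for polymerase and 12 for H3K27me3; colour and printed number give the count, and white lines part the groups. Nlrp14 holds 10 to 21 polymerase peaks in every list, and Nlrp4a, Nlrp4b and Nlrp9a hold 0 H3K27me3 peaks in all 12 lists.

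Nlrp14 held 10 to 13 polymerase peaks in adult controls, 17 to 21 at p20 and 15 to 20 in adult Dis3 cKO, and Nlrp9c held 4 to 6, 9 to 13 and 1 to 20. The lists held 19697 to 122606 peaks in all, the number over a gene depends on how many were called, and no change of binding is read from these counts. H3K27me3 peaks overlapped the body of a member in 32 of 96 pairs (33.3%) and lay within 1 kb of a start in 0 of 84, where 18.3% to 30.0% of all protein-coding genes had one, and within 5 kb in 5 of 84 (5.95%), where 29.0% to 52.6% of all protein-coding genes had one. Genes with spans in the members' range had an H3K27me3 peak over the body in 40.3% to 71.2% of cases. By group, a member's body held an H3K27me3 peak in 6 of 24 pairs in adult controls, 4 of 24 in p20 controls, 10 of 24 in adult Dis3 cKO and 12 of 24 in p20 dcKO, where genes of like span had one in 40.3% to 61.8%, 46.6% to 48.7%, 48.7% to 50.5% and 57.5% to 71.2% of cases. Up to 5 of the 8 members had such a peak in a knockout list and up to 3 in a control list. The H3K27me3 knockout lists were all longer (224934 to 299716 peaks) than the control lists (87394 to 202628), so no change of the mark is read from these counts. All 8 genes lie on 1 chromosome, and Nlrp9c, Nlrp4a and Nlrp9a are near neighbours, so the 8 were not taken as independent loci.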

How the data were processed

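Single-oocyte poly(A) RNA (71 libraries) and RiboMinus RNA (48 libraries) and CUT&Tag peak lists were used. The deposited values are whole-number counts per Ensembl gene and per ERCC spike-in, which the authors made on mm10; the submitters' processing notes name cutadapt 2.5, STAR 2.7.2a and HTSeq 0.9.1, with no role or order, and the treatment of multi-mapped reads and strand is not given in the sources used here. Peaks with their signal were deposited per library, called by the authors with SEACR as far as the submitters' processing notes tell; the signal values were not used. From the counts, edgeR 4.0.16 in R 4.3.3 fitted group means per assay (TMM scaling, filterByExpr with a minimum count of 10, quasi-likelihood F-test, Benjamini-Hochberg adjustment over all genes tested, threshold 0.05). The 6 poly(A) groups, the 2 adult and the 4 p20 RiboMinus groups were each 1 fit, and comparisons of ages used all 6 RiboMinus groups. Each SE was taken as the absolute log2 change over the root of its F value. Alternatives were DESeq2 1.42.0, ERCC scaling, no filter, other subsets, a replicate block and counts summed by title tag; leaving out 1 polymerase peak list was added after the data were seen. Every member was named in every comparison; listed genes were named from fixed lists, and nearest genes as the 2 with the largest Pearson r of log2(CPM + 1). Members and lists were chosen with earlier results of these data known, and the CCAAT box was added after the promoters were seen. Promoters came from a RefSeq table of GRCm38.p6 and were aligned pairwise.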

Additional observations from a re-analysis of the deposited data

Results flagged for a closer look

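In dcKO oocytes at p20 the change of 6 members differed from the sum of the changes in both single knockouts, tested as 1 term in the edgeR quasi-likelihood model, which called 31.4% of all genes. The term was 0.611 for Nlrp14 and 0.96 for Nlrp4c, and -0.25 for Nlrp4a, -0.583 for Nlrp4b, -0.411 for Nlrp9b and -0.647 for Nlrp9c on the log2 scale. With ERCC scaling (13.6% of all genes) the term passed the threshold for Nlrp4c alone of these 6, and with counts summed by title tag (6.25%) for Nlrp4c and Nlrp14.

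A library stood far from the other 7 of its group for 2 members. Nlrp4b was at 1057 CPM in 1 Exosc10 cKO oocyte at p20, where the others had 591.8 to 763.4 CPM. Nlrp9a was at 666.4 CPM in control MII egg 8, where the others had 352.3 to 498.6 CPM. In all 72 sets of 8 libraries were examined in this way. The 95% critical value of Dixon's test marks about 1 in 20 by chance, so these 2 are no more than chance gives.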

How the results depend on the processing

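Of 54 member values past the threshold, 47 kept their direction under every setting tried and 17 also stayed past the threshold; of 343 alternative values 293 kept both, 43 kept only the direction and 7 reversed, and 33 further member values passed only under an alternative. Counts of called members that moved by 1.5 times or less, and not to or from none, are mostly left out here. Examples given above are the loss of Nlrp4a in dcKO with ERCC scaling and of Nlrp9b in GV Dis3 cKO with only the 2 groups fitted. ERCC scaling changed the number of members called to 1 for Dis3 cKO at GV3h, 0 at MII, 8 from GV to MII in controls, 5 and 8 for GV3h and MII against GV in Dis3 cKO, 4 for the difference of Dis3 effects at MII, 8 in adult Dis3 cKO, 0 in Exosc10 cKO, 3 for dcKO against each single knockout, 1 beyond the sum and 8 between ages. The share of all genes called under that scaling was 28.2%, 41.9%, 87.8%, 37% and 83.6%, 30.1%, 44.6%, 2.29%, 36.9% and 31.6%, 13.6% and 86.1% in the same order. It reversed Nlrp4a in MII Dis3 cKO (0.079). From GV to MII in controls it gave Nlrp4a -1.344, Nlrp4b -1.498, and -1.776 for both Nlrp4e and Nlrp9c; in Dis3 cKO it gave Nlrp4a -0.949, Nlrp4b -1.21, Nlrp4c -1.212, Nlrp9a -0.962 and Nlrp9c -0.771. From GV to GV3h in Dis3 cKO it gave Nlrp4b 0.387, Nlrp9a 0.445, Nlrp9b 0.466 and Nlrp9c 0.207. It also gave 0.289 for Nlrp4b in the difference of effects at MII, -0.514 for Nlrp4a in adult Dis3 cKO, -0.063 for Nlrp4e in p20 Dis3 cKO, 0.013 for Nlrp4a beyond the sum and -1.526 for Nlrp4e between ages. With only oocytes numbered 1 to 8, the counts (with the share of all genes called) were 5 (GV Dis3 cKO, 23.1%), 0 (GV3h against GV in Dis3 cKO, 12.7%) and 1 (difference at MII, 11%); in Dis3 cKO, GV3h against GV was then 0.098 for Nlrp4b, 0.342 for Nlrp9a and 0.212 for Nlrp9b, MII against GV was 0.093 for Nlrp4e, and the difference at MII was 0.002 for Nlrp4b. With only the 2 groups compared, the counts were 5 (GV3h Dis3 cKO, 54.6%), 2 (GV3h against GV in Dis3 cKO, 29.6%), 1 (Exosc10 cKO, 8.31%) and 6 (ages, 33.5%). DESeq2 gave 1 (difference at MII, 13.2%) and 6 (ages, 16.9%). Sums by tag, with 2 values a group, gave 0 for adult Dis3 cKO (0% of all genes), p20 Dis3 cKO (1.37%), Exosc10 cKO (0.832%) and ages (1.04%), and 2 beyond the sum (6.25%). Without the filter Exosc10 cKO had 1 (3.07%), and GV3h against GV in Dis3 cKO was 0.019 for Nlrp9a and 0.033 for Nlrp9b. Only 2 libraries were left out in turn: without GV control oocyte 1, GV3h against GV in Dis3 cKO had 0 calls (17.5% of all genes; 1 and 20.7% without MII Dis3 cKO egg 15) and Nlrp9a from GV to MII in controls was 0.006 (-0.117 without that egg). Counting peaks near starts in place of gene bodies gave 6.35% (1 kb) and 20.6% (5 kb) of pairs for polymerase (all genes 2.9% to 15.3% and 8.87% to 40.6%; without the longest adult Dis3 cKO list the pairs came to 1.79% and 12.5%), and 0 and 5.95% for H3K27me3, under the 18.3% to 30.0% and 29.0% to 52.6% of all genes. In no comparison did every same-numbered pair have a correlation of deviations over 0.1 (3 of 8 pairs for Dis3 cKO at GV, 0 of 8 at GV3h, 5 of 15 for GV3h against GV in Dis3 cKO and 3 of 8 for dcKO against Exosc10 cKO). That bar is strict, and for Dis3 cKO at GV the median was 0.082 for same-numbered pairs and -0.002 for other pairs. Whether the numbers link samples was thus not settled, and the main fits treated the samples as unpaired. With a replicate block the counts were 3, 4 and 4 for Dis3 cKO at GV, GV3h and MII (21%, 37.3% and 39.3% of all genes), 2, 2 and 6 for Dis3 cKO, Exosc10 cKO and dcKO at p20 (7.2%, 6.96% and 53%), and GV3h against GV in Dis3 cKO was 0.016 for Nlrp9a and 0.024 for Nlrp9b. Adult tags are nested in genotype, so they allow no block. The causes were not tested. Depth limits Nlrp4c most.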
